A study of Mus musculus with 17 samples.

Results

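Antigen receptor gene segments are the V, D and J pieces and constant regions from which lymphocytes assemble immunoglobulin and T cell receptor genes. The members described here are all genes in the array annotation whose single symbol begins with an immunoglobulin heavy, kappa or lambda segment name, or with a T cell receptor alpha, beta, gamma or delta segment name. The surrogate light chain gene Igll1, which is not a segment, was left out. The rule used symbols and no measured value. It found 26 of the 22180 genes measured. Immunoglobulin segments made up 18 of them, with 3 from the heavy chain locus (Igh), 14 from kappa (Igk) and 1 from lambda (Igl). T cell receptor segments made up the other 8, with 5 from alpha (Tra), 1 from beta (Trb), 2 from gamma (Trg) and none from delta. All but 1 are V segments. The exception is Igkj1, a J segment of the kappa locus, and no constant region gene met the rule. RefSeq's gene table for the GRCm38.p6 assembly lists 654 segments of the same naming pattern, so the members are a small sample of each locus. In that table Igk and Trb members lie on chromosome 6, Igh members on chromosome 12, Trg on chromosome 13, Tra on chromosome 14 and Igl on chromosome 16.

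RNA of 9 sorted mouse populations was hybridised to 17 Affymetrix Mouse Gene 2.0 ST arrays. Thymus gave DN3 thymocytes (2 arrays), which are committed to the T lineage, and early thymic progenitors (ETP, 2 arrays). Bone marrow gave the early innate lymphoid progenitor (EILP, 1 array), natural killer cells (NK, 2 arrays), common lymphoid progenitors (CLP, 2 arrays), lymphoid-primed multipotent progenitors (LMPP, 2 arrays), common myeloid progenitors with and without surface Flt3 (flt3+ CMP and flt3- CMP, 2 arrays each) and hematopoietic stem cells (HSC, 2 arrays). Per the labels, cells were pooled from chimeric mice, made by giving marrow of TCF-1 GFP reporter donors to B6 CD45.1 recipients irradiated with 900 rads, and taken after 12 weeks. The labels do not say that arrays of 1 population came from separate pools, so a p-value here reflects the spread of these samples alone, which may be technical. Values are log2 expression, on which the median of all genes and arrays was 4.54. Differences are log2 differences with the standard error (SE) of a limma fit to all 17 arrays, and a call means an adjusted p under 0.05 (Benjamini-Hochberg, over all genes).

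In V(D)J recombination, the RAG proteins cut DNA beside chosen segments and the non-homologous end joining proteins seal the pieces into 1 exon. B lineage cells join heavy chain segments before light chain segments, and thymocytes join beta, gamma and delta segments before alpha segments. Unrearranged segments can also be transcribed when their locus is open, so RNA of a segment does not by itself show that it was joined. Segments of 1 family are close in sequence, and a probe set named for a single segment can take up RNA of its relatives. In bulk samples, fewer cells of a type and less RNA per cell cannot be told apart.

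Array medians lay between 4.45 and 4.62, and precision is limited by how few arrays there are. Markers of NK cells and of DN3 thymocytes were high where the labels put them. The mean of 6 NK genes was 8.97 to 9.23 on NK arrays and at most 4.92 elsewhere, and that of 3 measured DN3 genes was 9.32 to 9.57 on DN3 arrays and at most 5.20 elsewhere. Markers fixed for EILP averaged 7.16 on the EILP array, below both NK arrays at 7.19 and 7.46. A mean of 6 neutrophil genes was 11.77 in EILP, 11.62 and 11.70 in CLP, 9.95 to 11.22 in the other marrow populations and 4.03 to 5.11 in thymus. The mean of 3 Y-linked genes was 7.03 to 7.66 on the DN3, EILP and CLP arrays and 3.03 to 3.38 on the other 12. A comparison of DN3, EILP or CLP with any of the other 6 populations therefore cannot be told apart from this split of the pools.

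Across the 9 populations, 10 of the 26 segments differed by limma's moderated F test, against 22.7% of all genes. They were Ighv1-53, 7 of the 14 kappa segments (Igkj1, Igkv4-70, Igkv5-43, Igkv6-14, Igkv8-19, Igkv8-30 and Igkv9-120), Trav9d-3 and Trbv13-2. With the EILP array left out, the F test called 6, so the count of 10 rested in part on 1 array. The share of all genes called without EILP is not given, and 22.7% belongs to the fit with EILP. Of the 18 immunoglobulin segments, 8 had their highest array in CLP and 5 in EILP, the remainder being 3 in DN3, 1 in NK and 1 in HSC. Of the 8 T cell receptor segments, 4 had their highest array in NK, 2 in DN3, 1 in ETP and 1 in LMPP. These counts take in dim segments and small gaps, such as Trgv6 at 3.90 on both its highest array (NK) and its second (DN3). The share of all genes with their highest array in each population is not given. The counts therefore do not by themselves set a population apart. Some segments were dim on every array: 12 of the 18 immunoglobulin segments and 6 of the 8 T cell receptor segments had an array above 4.54, and the rest had none. A level below that value leaves the size of a difference uncertain.

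**Figure D1:**
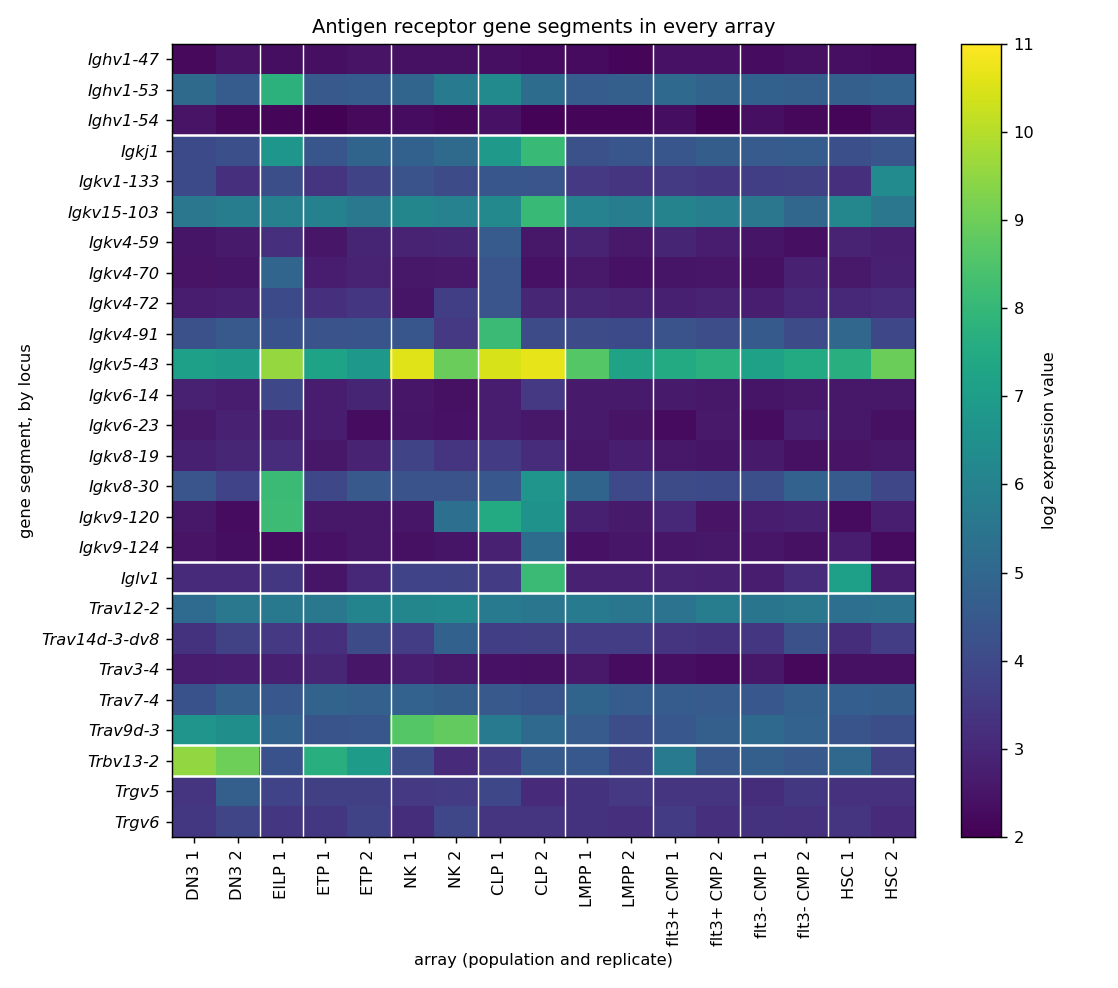
Log2 expression of the 26 antigen receptor segments (down the page, grouped by locus) on the 17 arrays (across, grouped by population), with colour giving the level. Bright cells of immunoglobulin segments gather in the EILP and CLP columns, Trbv13-2 is bright in DN3 and ETP, and Trav9d-3 in NK and DN3.

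The EILP array carried high levels of several kappa segments and of 1 heavy chain segment. EILP was set against LMPP, an earlier marrow progenitor, and 6 of the 26 segments were higher and none lower, where 2.1% of all genes were higher and 1.79% lower. All 6 were immunoglobulin segments. Over the 18 immunoglobulin segments the median EILP minus LMPP difference was 0.67, against 0.13 over the 8 T cell receptor segments and -0.00093 over all genes. The SE of each EILP difference takes its spread from the other populations, in most of which these segments were flat. Where they were high, in CLP, replicates differed by more (Igkv8-30 at 4.46 and 6.71), so the p-values of EILP differences may be too small.

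Igkv9-120, a kappa V segment, stood at 8.17 on the EILP array. It was at 2.55 and 5.28 in NK, at 7.49 and 6.61 in CLP, and between 2.28 and 2.99 on the other 12 arrays. EILP and both CLP arrays were above every other array, and of the NK pair only the second was raised. EILP exceeded LMPP by 5.45 ± 0.72 (SE, n = 1 against 2, limma adjusted p = 0.000786). Igkv8-30, another kappa V segment, stood at 8.14 in EILP, at 4.46 and 6.71 in CLP, and between 3.79 and 4.89 on the other 14 arrays. Here only the second CLP array approached EILP, and the first lay among the other populations. EILP exceeded LMPP by 3.70 ± 0.66 (SE, limma adjusted p = 0.00618).

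Ighv1-53 is the only heavy chain V segment of the rule with any array above the median of all values. It stood at 7.78 in EILP, at 4.95 and 5.67 in NK, at 6.28 and 5.19 in CLP, and between 4.50 and 5.13 on the other 12 arrays. EILP was above every other array, and its excess over LMPP was 3.10 ± 0.37 (SE, limma adjusted p = 0.000412). The other heavy chain members, Ighv1-47 and Ighv1-54, lay between 2.05 and 2.49 on all 17 arrays, EILP and CLP included.

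Igkj1 is among the J segments of the kappa locus to which kappa V segments can be joined. It stood at 6.73 in EILP, at 6.87 and 8.09 in CLP, and between 4.03 and 5.12 on the other 14 arrays. The EILP and CLP arrays did not overlap with the rest. EILP exceeded LMPP by 2.41 ± 0.37 (SE, limma adjusted p = 0.00203). Igkj1 and Igkv9-120 were the members with all 3 EILP and CLP arrays above all 14 others, a pattern shown by 2.42% of all genes.

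Igkv4-70 and Igkv6-14, both kappa V segments, reached lower levels. Igkv4-70 stood at 4.94 in EILP, at 4.36 and 2.45 in CLP, and at 2.39 to 2.90 on the other 14 arrays. Its EILP minus LMPP difference was 2.41 ± 0.49 (SE, limma adjusted p = 0.0142), and without the second LMPP array the adjusted p was 0.0723. Igkv6-14 stood at 3.95 in EILP, at 2.73 and 3.49 in CLP, and at 2.40 to 2.94 on the other 14 arrays, so that even its highest value lay below 4.54. Its EILP minus LMPP difference was 1.31 ± 0.25 (SE, limma adjusted p = 0.00904).

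**Figure D2:**
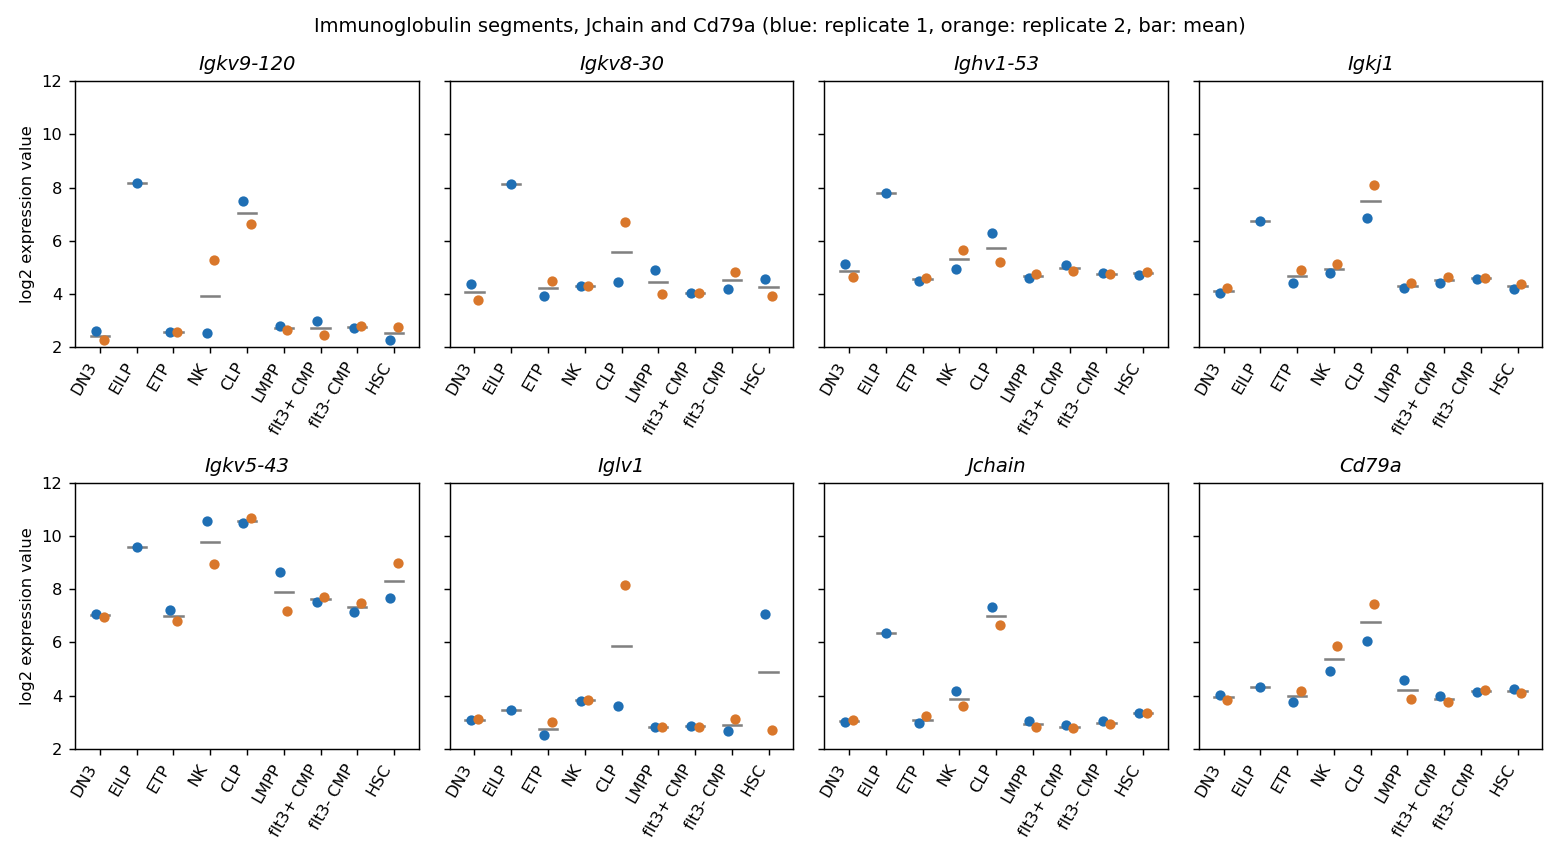
Log2 expression of 6 immunoglobulin segments and of Jchain and Cd79a on every array, with 1 point per array and populations across the page. Igkv9-120, Igkj1 and Jchain are high on the EILP array and on both CLP arrays, whereas Cd79a is at 4.34 in EILP and at 6.06 and 7.45 in CLP.

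The EILP array was also set against ETP, early progenitors taken from thymus, and against NK, a mature innate lymphocyte. These comparisons share the EILP array with the one above and are no separate evidence of its level. In EILP minus ETP, 7 segments were higher and 1 lower, where 4.79% of all genes were higher and 3.4% lower. The 7 were the 6 named above and Igkv5-43, which was higher by 2.58 ± 0.63 (SE, limma adjusted p = 0.0209), a call lost without the second ETP array (adjusted p = 0.0886) and with the mean of its 3 probe sets (0.77, adjusted p = 0.281). The lower one was Trbv13-2, described below. In EILP minus NK, 6 immunoglobulin segments were higher and Trav9d-3 was lower, where 1.57% of all genes were higher and 1.91% lower. Igkv9-120 was higher than in NK by 4.25, a difference that was 2.89 without the first NK array. The calls of Igkv4-70 and Igkj1 against NK ended without that same array, at adjusted p of 0.0545 and 0.0646, and that of Igkv4-70 also without the second NK array (adjusted p = 0.0575).

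CLP, a marrow progenitor of B cells and other lymphocytes, was set against LMPP to follow the segments at the step toward the B lineage. In this comparison 4 segments were higher and none lower, where 3.75% of all genes were higher and 2.2% lower. The median over the 18 immunoglobulin segments was 1.00, against 0.02 over the T cell receptor segments and -0.05 over all genes. Igkv9-120 was higher by 4.34 ± 0.59 (SE, n = 2 each, limma adjusted p = 0.000542) and Igkj1 by 3.17 ± 0.30 (limma adjusted p = 3.09e-05). Igkv5-43, a kappa V segment, stood at 9.58 in EILP, at 10.57 and 8.96 in NK, at 10.47 and 10.67 in CLP, at 8.63 and 7.20 in LMPP, and between 6.80 and 8.97 on the other 10 arrays. It was the brightest member, with CLP above LMPP by 2.66 ± 0.52 (SE, limma adjusted p = 0.0072). That call ended without the second LMPP array (adjusted p = 0.0858) or the second CLP array (adjusted p = 0.0589). The fourth was Trav9d-3, at 5.75 and 5.08 in CLP and 4.57 and 4.14 in LMPP, with a difference of 1.06 ± 0.22 (SE, limma adjusted p = 0.0109) that did not pass without the second LMPP array (adjusted p = 0.114) or the first CLP array (adjusted p = 0.13).

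The CLP replicates differed from each other at the immunoglobulin segments far more than at other genes. Of the 18 segments, 10 differed by more than 1 between the CLP arrays, or 55.6%, where 1.01% of all genes did. In 5 of them the first array was higher and in 5 the second. The median gap was 1.15 for the immunoglobulin segments and 0.16 for all genes. None of the 8 T cell receptor segments differed by more than 1 between the CLP arrays.

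Iglv1, the only lambda V segment of the rule, had the widest gap, 4.53. It stood at 3.61 and 8.14 in CLP and at 7.07 and 2.72 in HSC, and between 2.53 and 3.85 on the other 13 arrays. It was high on 1 array of each of those pairs and on no other array. Igkv4-91, a kappa V segment, went the other way in CLP, with 8.12 on the first array and 4.08 on the second, and 3.49 to 4.98 on the other 15. Igkv9-124 stood at 2.83 and 5.19 in CLP and at 2.26 to 2.71 elsewhere, and Igkv15-103 at 6.25 and 8.07 in CLP and at 4.99 to 6.16 elsewhere. Igkv4-59 stood at 4.60 and 2.58 in CLP, at 3.22 in EILP and at 2.38 to 2.94 on the other 14 arrays. Igkv4-72 stood at 4.04 in EILP, at 4.37 and 2.95 in CLP and at 2.49 to 3.68 on the other 14. The 4 members of the Igkv4 family were all higher on the first CLP array by more than 1, and since relatives can share RNA they may not be separate measurements. Each of these 6 segments differed by more than 1 between the CLP arrays, and none was called in CLP minus LMPP. Igkv4-72 was below 4.54 on every array. By limma at an unadjusted p under 0.05, however, 11 of the 18 immunoglobulin segments were higher in CLP than in LMPP, where 8.79% of all genes were.

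**Figure D3:**
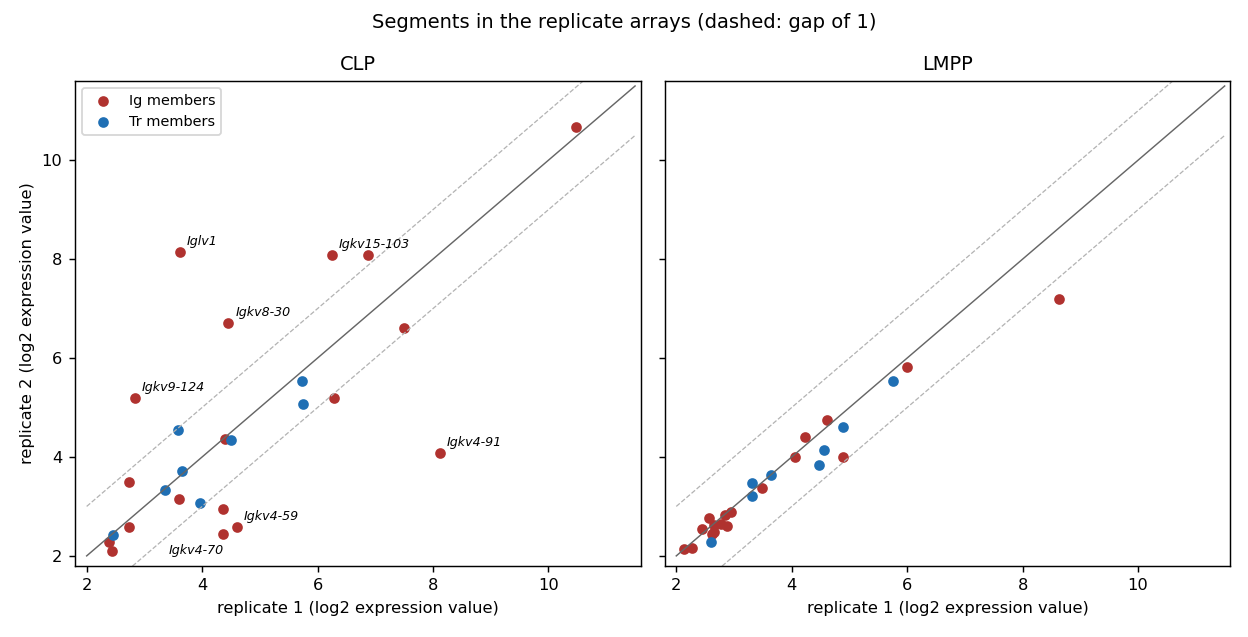
Log2 expression of the 26 segments on the second array of a population (vertical axis) against the first (horizontal axis), for CLP and for LMPP, with a diagonal line of equal values. In CLP, 10 of 18 immunoglobulin segments lie more than 1 from the line, on both sides of it, and in LMPP 1 does.

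The same count was 4 of 18 in HSC (22.2%, against 1.24% of all genes), 3 in NK (16.7%, against 2.44%), 1 in LMPP (5.56%, against 1.06%) and 0 in DN3, ETP, flt3+ CMP and flt3- CMP. In HSC the segments included Iglv1 and the kappa V segment Igkv1-133, at 3.22 and 6.33 in HSC and at 3.21 to 4.40 on the other 15 arrays. EILP has a single array, so no such gap can be given for it. The median within-population standard deviation of the 18 immunoglobulin segments was 0.505, a value above that of 98.1% of all genes, while that of the T cell receptor segments was 0.246 and that of all genes 0.202.

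The segments called in CLP turned on which array was used. With both CLP arrays, 4 segments were called in CLP minus LMPP. The fits that left out the first or the second CLP array called largely different segments, the lone array being assumed to vary like the other populations. Igkj1 and Igkv9-120 were the 2 segments called in both. Such a fit takes the CLP gap out of the SE, so its number of calls cannot be set beside that of the full fit.

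EILP minus CLP compared the populations with the highest immunoglobulin segment levels. The mean of the 18 segments was 4.83 in EILP, and 4.89 and 4.93 in CLP, against 3.43 to 3.96 on the other 14 arrays. Ighv1-53 was the only segment called, higher in EILP by 2.04 ± 0.37 (SE, n = 1 against 2, limma adjusted p = 0.0328), where 0.0406% of all genes were higher and 0.325% lower. That call was lost in 9 of the 16 fits that each left out 1 array, among them the fit without the second CLP array, in which the difference was 1.50 (adjusted p = 0.125). At an unadjusted p under 0.05, 4 immunoglobulin segments were higher and 2 lower in EILP, where 3.94% of all genes were higher and 4.7% lower. The remaining segments were not shown to differ or to be alike.

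Genes that work beside the segments in B lineage cells were not all high in EILP. Jchain, which joins IgM and IgA into polymers in antibody-secreting cells, stood at 6.35 in EILP, at 4.17 and 3.61 in NK, at 7.34 and 6.67 in CLP, and at 2.78 to 3.37 on the other 12 arrays. Its EILP minus LMPP difference was 3.41 ± 0.27 (SE, limma adjusted p = 1.95e-05). Igh-VS107, a heavy chain V gene whose symbol lies outside the rule, stood at 8.23 in EILP, at 8.35 and 8.76 in CLP, and at 3.97 to 6.31 on the other 14 arrays. Cd79a, a signalling chain of the B cell receptor, stood at 4.34 in EILP, at 6.06 and 7.45 in CLP and at 4.57 and 3.86 in LMPP, with an EILP minus LMPP difference of 0.12 ± 0.48 (SE, limma adjusted p = 0.976). Ebf1, a transcription factor of early B cells, averaged 7.30 in CLP, against 3.87 in LMPP, and was 3.69 in EILP.

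Of the 12 measured markers of mature B and plasma cells, 1 was higher in EILP than in LMPP (Jchain) and 1 lower (Sdc1). In CLP minus LMPP, 4 were higher (Cd22, Irf4, Jchain and Mzb1). In NK minus LMPP, 4 were higher (Ms4a1, Cd22, Prdm1 and Jchain) and 1 lower (Sdc1). The mean of the list was 4.51 in EILP, 4.99 and 5.03 in CLP, 4.62 and 4.50 in NK, and 3.98 to 4.45 on the other 12 arrays. Ms4a1, which encodes the B cell surface protein CD20, was at most 4.05 on any array, reached on the first NK array. Tnfrsf17, a receptor of plasma cells, lay between 3.42 and 3.97. The part of such cells in the segment levels was not tested.

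NK cells carried 3 segments above LMPP and none below it, where 3.54% of all genes were higher and 3.18% lower. Trav9d-3, described below, was called, as were Igkv5-43 and Igkv8-19. Igkv8-19, a dim kappa V segment, stood at 3.85 and 3.39 in NK, at 3.60 and 3.16 in CLP, at 3.15 in EILP, and at 2.40 to 2.96 on the other 12 arrays. Its NK minus LMPP difference was 0.95 ± 0.20 (SE, n = 2 each, limma adjusted p = 0.0103). Igkv5-43 was higher in NK by 1.85 ± 0.52 (limma adjusted p = 0.0482), and 12 of the 17 fits that each left out 1 array lost that call, the lowest difference being 1.04 without the first NK array. Igkv5-43 has 3 probe sets whose levels across arrays correlated at 0.616 to 0.831 (Pearson, over 17 arrays that share their populations). The least bright of them stood at 2.24 in EILP, at 2.67 and 5.06 in NK, at 6.56 and 4.68 in CLP, and at 2.25 to 2.83 on the other 12 arrays, so it was raised in CLP and on 1 NK array but not in EILP.

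Among T cell receptor segments, Trbv13-2 followed the thymic populations. This V segment of the beta locus, the first T cell receptor chain to be completed in alpha-beta thymocytes, stood at 9.54 and 9.01 in DN3, at 7.65 and 6.94 in ETP, and at 3.12 to 5.74 on the 13 marrow arrays. The DN3 arrays were above the ETP arrays and these above all marrow arrays. ETP minus LMPP was set up to follow the step from marrow to thymus, and Trbv13-2 was the only segment called there, higher by 3.14 ± 0.50 (SE, n = 2 each, limma adjusted p = 0.00204), where 1.02% of all genes were higher and 2.4% lower. EILP, at 4.25, was lower than ETP, with a difference of -3.05 ± 0.61 (SE, limma adjusted p = 0.00609).

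DN3 minus ETP followed T cell development within the thymus. Trbv13-2 and Trav9d-3 were higher in DN3 and no segment was lower, where 5.2% of all genes were higher and 3.53% lower. Trbv13-2 was higher by 1.98 ± 0.50 (SE, limma adjusted p = 0.0237). The call ended without the second ETP array (1.63, adjusted p = 0.163), the first DN3 array (1.71, adjusted p = 0.16) or the second DN3 array (2.24, adjusted p = 0.0635). No immunoglobulin segment differed by limma at an unadjusted p under 0.05, where 20.8% of all genes did, and their median difference was -0.07. The SE of the immunoglobulin segments also takes in their wide gaps in CLP and HSC. This count therefore does not show that they were alike in DN3 and ETP.

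Trav9d-3, a V segment of the alpha locus, was highest in NK. It stood at 6.71 and 6.49 in DN3, at 4.81 in EILP, at 4.35 and 4.42 in ETP, at 8.64 and 8.85 in NK, at 5.75 and 5.08 in CLP, and at 4.14 to 5.07 on the 8 LMPP, CMP and HSC arrays. Both NK arrays were above all others, and both DN3 arrays above all but NK. NK exceeded LMPP by 4.40 ± 0.22 (SE, n = 2 each, limma adjusted p = 2.48e-08), and DN3 exceeded ETP by 2.22 ± 0.22 (limma adjusted p = 2.07e-05). EILP differed from NK by -3.94 ± 0.27 (limma adjusted p = 1.21e-06).

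The level of Trav9d-3 came from 1 of its 5 probe sets. The other 4 lay between 2.59 and 5.62 on all arrays, and none of them was called by the F test. With the mean of its probe sets in place of the brightest, the DN3 minus ETP difference was 0.18 (limma adjusted p = 0.569), the DN3 minus CLP difference 0.40 (limma adjusted p = 0.134) and the CLP minus LMPP difference 0.10 (limma adjusted p = 0.85). Which transcript the bright probe set detects was not tested.

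**Figure D4:**
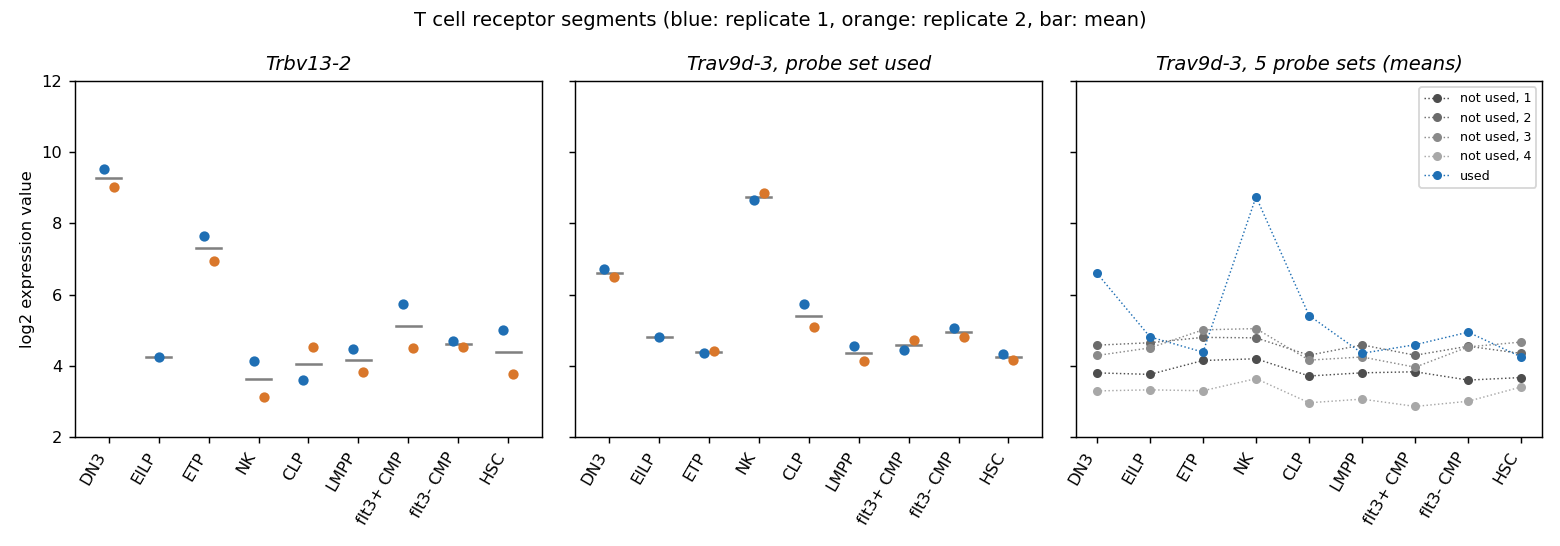
Log2 expression of Trbv13-2 and Trav9d-3 on every array (1 point per array), and the population means of the 5 Trav9d-3 probe sets. Trbv13-2 is at 9.54 and 9.01 in DN3, above ETP at 7.65 and 6.94. The brightest Trav9d-3 probe set reaches 8.64 and 8.85 in NK, and the other 4 do not exceed 5.62.

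The remaining T cell receptor segments were not called by the F test. Trav12-2 lay between 5.15 and 6.21, with its highest values in NK, Trav7-4 between 4.27 and 4.89, Trav14d-3-dv8 between 3.18 and 4.81, and Trav3-4 between 2.20 and 2.96. The gamma segments Trgv5 and Trgv6 lay between 3.07 and 4.73 and between 3.10 and 3.90. Replicates of Trgv5 differed most in DN3, at 3.39 and 4.73, and those of Trav14d-3-dv8 in NK, at 3.65 and 4.81, a spread within populations above that of 95.4% of all genes for Trgv5 and 96.4% for Trav14d-3-dv8. Among Trav12-2's 6 probe sets, 2 pairs held the same value on every array, so they are not separate measurements.

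Chains that carry the T cell receptor to the surface were high in DN3 and, for the Cd3 genes, raised in NK as well. Cd3g, a signalling chain of the T cell receptor, stood at 11.66 and 11.62 in DN3, 5.69 and 4.74 in ETP, 7.55 and 7.80 in NK, and 3.36 and 3.10 in LMPP. DN3 exceeded ETP by 6.42 ± 0.27 (SE, limma adjusted p = 4.98e-09), and NK exceeded LMPP by 4.44 ± 0.27 (limma adjusted p = 1.58e-07). Of 10 measured partner chains, 4 were higher in DN3 than in ETP (Ptcra, Cd3d, Cd3e and Cd3g), 3 were higher in NK than in LMPP (the Cd3 genes) and 5 were higher in CLP than in LMPP (Igll1, Vpreb2, Vpreb3, Cd79a and Cd79b). In EILP minus LMPP none was higher and Cd79b was lower. The mean of 8 mature T cell markers was 5.48 and 5.70 in DN3, 4.59 and 4.65 in NK, and 4.08 to 4.80 on the other 13 arrays, and the part of T cells in the NK values was not tested.

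DN3 was also set against CLP, the T lineage against the B-competent progenitor. In DN3, 2 segments were higher and 4 lower, where 4.69% of all genes were higher and 5.92% lower. Trbv13-2 was higher by 5.21 ± 0.50 (SE, n = 2 each, limma adjusted p = 6.2e-06) and Trav9d-3 by 1.19 ± 0.22 (limma adjusted p = 0.00249). The Trav9d-3 call rests on its brightest probe set. Igkv9-120 differed by -4.61 ± 0.59, Igkv5-43 by -3.55 ± 0.52 and Igkj1 by -3.36 ± 0.30, with limma adjusted p of 9.84e-05, 0.000313 and 2.97e-06. Igkv15-103 differed by -1.47 ± 0.42 (limma adjusted p = 0.038), and by -0.55 (adjusted p = 0.368) without the second CLP array. Leaving out either CLP array raised the number of called segments, but it also takes the CLP gap out of their SE. The larger number therefore does not show more or firmer differences. The median was -0.96 over the immunoglobulin segments, 0.32 over the T cell receptor segments and 0.09 over all genes.

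No segment was called in LMPP minus HSC, the first step of lymphoid priming, by limma, where 0.275% of all genes were higher and 0.325% lower. None had an unadjusted p under 0.05, whereas 7.4% of all genes did. For the immunoglobulin segments the SE takes in their wide gaps in CLP and HSC, so differences could be missed here. Without the first HSC array, 1 segment was called, Igkv1-133, which is high on the second HSC array alone.

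In EILP, where several kappa segments were high, Rag2 and Dntt were lower than in LMPP. Rag2, a subunit of the nuclease that starts recombination, stood at 8.22 and 7.88 in DN3, 4.25 in EILP, 7.74 and 6.83 in ETP, 3.93 and 3.91 in NK, 7.27 and 7.39 in CLP, 6.73 and 6.78 in LMPP, and 4.18 and 4.81 in HSC. EILP was thus in the range of NK and HSC for Rag2, with an EILP minus LMPP difference of -2.50 ± 0.32 (SE, limma adjusted p = 0.00055). Dntt, which adds nucleotides at the joins, was 7.58 in EILP and 10.56 and 10.83 in LMPP, a difference of -3.11 ± 0.34 (limma adjusted p = 0.000221). Rag1, the other RAG protein, and Dclre1c, the nuclease that opens hairpin ends, were not analysed here. Of 14 measured genes of the recombination machinery, none was higher and 4 were lower in EILP than in LMPP (Rag2, Dntt, Xrcc5 and Xrcc6), and 5 were higher and none lower in DN3 than in ETP (Hmgb1, Hmgb2, Xrcc5, Xrcc6 and Lig4). In LMPP minus HSC, where no segment was called, Rag2, Dntt and Xrcc6 were higher.

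Of 18 measured transcription and signalling factors that act on receptor loci, 8 were higher and none lower in CLP than in LMPP, among them Ebf1, Pax5, Il7r and Pou2af1. In EILP minus LMPP only Spi1, which encodes PU.1, was called, and it was higher. In DN3 minus ETP, 6 were higher, including Bcl11b, Tcf3 and Ets1, and Spi1 was lower. Of the heavy chain constant genes, Ighm, which encodes the IgM heavy chain, was expressed on every array, between 7.17 and 10.47. It was 9.80 and 10.23 in LMPP, against 7.17 and 8.52 in HSC, a difference of 2.17 ± 0.31 (SE, limma adjusted p = 0.00468), and 9.50 in EILP, against 10.24 and 10.47 in CLP.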

How the data were processed

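The authors deposited log2 expression values for 41345 probe sets on 17 arrays. Per the submitters' processing notes they came from Affymetrix Expression Console. Neither version nor algorithm is given in the sources used here. The log2 unit of the deposited table was inferred from its range. Per the labels' protocols, RNA was amplified with the NuGEN Pico V2 kit. Probe sets were named from the platform annotation: 23521 had 1 symbol, 1814 several and 16010 none. The 1082 genes with more than 1 probe set kept the one with the highest mean over arrays, which left 22180 genes. Of the 26 segments, 21 had 1 probe set and 5 had several, and 6 probe sets that list several symbols with a segment among them were not used. All 26 matched RefSeq's table by gene ID.

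Each population had its own mean in a limma 3.58.1 fit (R 4.3.3) over the 17 arrays (8 residual and 5.33 prior degrees of freedom). EILP, with 1 array, was assumed to vary like the rest. In 10 comparisons, and in the moderated F test over 9 populations, p-values (two-sided for the comparisons) were adjusted over all 22180 genes. The median SE was 0.20 between pairs and 0.24 for EILP against a pair. The model was checked on simulated data.

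The segments and lists were chosen with earlier results of these data known. The rule for naming took, in each locus, the 3 segments with the widest range of population means and the 3 with the highest mean, and in each comparison the 5 largest called changes of at least 1 in each direction without overlap. Segments that it did not take, Igh-VS107 and markers of other cells were named after their values were seen. Alternatives were array centring, averaging probe sets per gene, a filter on dim genes, quantile normalization, only the arrays compared, a replicate block and leaving out each array; those by probe set and by side of the Y-linked split were chosen after seeing the data.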

Additional observations from a re-analysis of the deposited data

How the results depend on the processing

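No change of a named segment reversed under any alternative. Of 33 changes in 9 named segments, 23 stayed called whichever single array was left out, 32 after centring each array, 31 after quantile normalization, 33 with dim genes left out, 29 with probe sets averaged per gene and 26 with only the arrays compared. The filter on dim genes kept a gene by its highest population mean. A segment can pass it through the population where it is high, so keeping all 33 is no check of these changes. On 1 side of the Y-linked split, 7 of 10 stayed called. Those 10 compare populations that lie on the same side of it. Changes between its sides could not be refitted in this way, so their dependence on the split was not tested. The count in DN3 minus ETP was 1 with the mean of probe sets. In EILP minus CLP it was 0 by limma with only the arrays compared (4 at an unadjusted p under 0.05) and 0 on 1 side of the Y-linked split (5 unadjusted). In EILP minus NK it was 3 with only the arrays compared, a fit with fewer arrays. Leaving out single arrays gave 6 to 13 segments by the F test, 1 to 2 in DN3 minus ETP, 5 to 10 in DN3 minus CLP, 2 to 8 in CLP minus LMPP, 0 to 1 in LMPP minus HSC and 0 to 4 in EILP minus CLP. No share of all genes is given for these fits. Those without a CLP array take the CLP gap out of the SE, so their higher counts do not show more differences. Replicate numbers showed no strong shared effect: the correlation of same-numbered deviations was -0.07 to 0.09 over 28 pairs of populations. Whether same-numbered arrays shared a pool or day is not in the labels. With the replicate number as a block, which EILP cannot enter, the F test called 6, as without EILP alone, and 14 of 15 named changes stayed called. The precision is limited by 2 arrays a population and by levels near background.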

Other observations

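Among heavy chain constant genes outside the rule, Ighg3, which encodes the IgG3 heavy chain, stood at 4.11 on the first CLP array and 7.37 on the second, at 5.32 and 3.90 in DN3, and at 3.84 to 4.46 on the other 13 arrays. It was thus high on the CLP array on which Iglv1, Igkv15-103 and Igkv9-124 were high, and the gap was not tested.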
